A study of Mus musculus with 39 samples.

Results

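RNA sequencing followed 40 interferon response genes in mouse liver and in the triceps surae muscle of the calf. They were taken by symbol from a list of genes that interferons induce, chosen with earlier results of these data known. All 40 of 40 symbols matched a row among the 46517 gene identifiers of the count tables. The mice were females aged 25 weeks on a mixed C57BL/6 and 129 background, and every mouse was Ins1-/-, with no copy of one mouse insulin gene. Littermates carried the other insulin gene as Ins2+/+ or Ins2+/-, so all groups shared the Ins1 deletion and the genotypes differed in the dose of Ins2. Each genotype ate diet A (LabDiet 5LJ5, 4.68 kcal per g, with 25% of calories from fat, 55% from carbohydrate and 20% from protein) or diet B (Research Diets D12330, 5.56 kcal per g, with 58%, 26% and 16%). Tissue was taken after a 4 h fast. There were 19 livers and 20 muscles, 5 in every group but 1, the diet B livers of Ins2+/+ mice, where 4 (replicates 2 to 5) were analysed. Replicates were taken as separate mice, as the labels describe them. Livers Ins2+/- B 2 and B 3, the deepest libraries, differed from each other beyond sampling noise but less than the rest of their group. The chi-square of their counts divided by its degrees of freedom was 6.33, where noise alone gives 1 and the other pairs of the group gave 11.8 to 60.1. Whether they share an animal is not given, so that group may hold 4 mice, and summing them as 1 library changed no call.

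Interferons are cytokines that cells release when they detect viral nucleic acid. Type I interferons act through a receptor that activates STAT proteins and IRF9, which together bind a DNA element called the ISRE in front of the induced genes. Interferon-gamma acts through another receptor and a STAT dimer that binds the GAS element, TTCNNNGAA. In liver, hepatocytes and Kupffer cells, the resident macrophages, both respond, and some induced genes are also transcribed at a low tonic level without infection. The 40 genes were grouped by role into transcription factors (Irf7, Irf9, Stat2), sensors of viral nucleic acid, the ISG15, ubiquitin and ADP-ribose conjugation systems, direct antiviral effectors, other interferon-induced genes, antigen processing, and the interferon-gamma-inducible GTPases.

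The core of the ISRE was searched as GAAA, 2 bases of any kind and GAAA again. RefSeq promoters on GRCm38.p6, 300 bases each, were matched for 28 of the 40 genes. This core, read on both strands, occurred in 15 of the 28 (53.6%), against 3.99% of the 27025 genes with a promoter. It was present in 5 of 5 GTPases, 2 of 2 sensors and 6 of 9 antiviral effectors, and in 0 of 3 antigen processing genes. TTCNNNGAA occurred in 8 of 28 (28.6%), against 9.55% of all genes. The stretches below belong to 6 genes whose estimates differed between genotypes on diet A at an unadjusted p below 0.05, and they are shown to make the repeated element legible. They are written 5′ to 3′ on the strand of the gene, with each ISRE core, or its reverse complement in Ifit3, in capitals. The Ifitm3 stretch lies just inside the 5′ untranslated region and the others lie before the start site.
Ifitm3, chr7:141010716-141010742, minus strand: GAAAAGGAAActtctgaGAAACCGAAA
Irgm1, chr11:48871421-48871480, minus strand: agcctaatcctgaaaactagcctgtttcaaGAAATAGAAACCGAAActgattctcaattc
Bst2, chr8:71537563-71537632, minus strand: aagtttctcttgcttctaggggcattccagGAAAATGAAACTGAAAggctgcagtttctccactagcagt
Igtp, chr11:58199492-58199555, plus strand: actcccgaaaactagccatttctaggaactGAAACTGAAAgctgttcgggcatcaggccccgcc
Ifit3, chr19:34583343-34583416, plus strand: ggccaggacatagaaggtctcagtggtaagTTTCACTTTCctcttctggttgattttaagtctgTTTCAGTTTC
Isg15, chr4:156200857-156200926, minus strand: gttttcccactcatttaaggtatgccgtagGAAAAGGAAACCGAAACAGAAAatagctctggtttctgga
In Irgm1, Bst2 and Isg15 the element repeats in overlap, so that 1 capital run holds 2 or 3 copies. A match describes these letters and does not show binding. Among genes without a core were Irf7, Irf9 and Trim25, and TTCNNNGAA overlapped an ISRE core in part in Ifitm3 and Bst2.

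Liver libraries held 1289225 to 54249818 estimated counts (median 4847998) and muscle libraries 1060469 to 13709576. In liver 39 of the 40 genes had a count in every library, with a median over genes of 74 counts per library, and all 40 entered the test. In muscle 10 had a count in every library, with a median of 19 counts, and 30 entered the test. The untested muscle genes were Dhx58, Zbp1, Isg15, Usp18, Oas1a, Oas2, Oasl1, Mx1, Mx2 and Ifi44. Hepatocyte markers summed to 90770 CPM (counts scaled to library size) or more in every liver and myofibre markers to 55830 or more in every muscle. Ins2 counts, which ranged from 1 to 21268 in livers and from 3 to 50648 in muscles, overlapped between the genotypes and do not check the labels, and islet markers reached 5 CPM in 6 livers and 9 muscles. The deleted Ins1 had 0 counts in all 19 livers and at most 11 in any muscle.

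The interferons themselves were almost unread. Of 20 ligand genes, 2 had any count in liver (Ifng, 8 counts over 5 livers, and Ifnz, 3 counts over 2 livers), and Ifnz alone had any in muscle (3 counts over 2 libraries). The Ifna genes, Ifnb1 and the Ifnl genes in the list had 0 counts in all 39 libraries. A count of 0 still allows up to 3 counts, which is 0.0553 to 2.33 CPM across livers. No ligand entered a test.

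Most of the 40 genes were higher in liver than in muscle. In a joint scaling of all 39 libraries, 36 were called higher in liver at a Benjamini-Hochberg adjusted p below 0.05 in edgeR's quasi-likelihood test, and 1 was called lower. Over all 13714 genes tested, 38% were called higher and 39.8% lower. The 10 genes that failed the filter on low counts in muscle entered this fit through their liver counts alone, and 9 of the 36 calls are theirs. Of the 30 genes that passed in muscle, 27 were called higher and 1 lower, with a median log2 ratio of liver over muscle of 2.02, against -0.042 for all genes. These 27 were all 3 transcription factors, 2 of 2 sensors, 4 of 4 conjugation enzymes, 3 of 3 antigen processing genes, 6 of 6 GTPases, 5 of 7 effectors and 4 of 5 other interferon-induced genes.

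Iigp1, a GTPase that disrupts the vacuoles of intracellular parasites, stood furthest apart. Its level was 221.9 to 441 CPM in the 19 livers, with a median of 323, and 0.626 to 22.8 CPM in the 20 muscles, with a median of 6.02. The tissues did not overlap, and the log2 ratio was 5.64 ± 0.23 (SE; adjusted p = 2.79e-23). Bst2, or tetherin, which holds budding virions at the cell surface, ranged from 49.7 to 75.8 CPM in livers and from 0 to 6.74 in muscles (log2 ratio 4.00 ± 0.19, adjusted p = 3.99e-21). Trim25, the ubiquitin ligase that acts with the RNA sensor RIG-I, ranged from 83.3 to 132 CPM in livers and from 0 to 21.7 in muscles (3.12 ± 0.16, adjusted p = 2.75e-20). Neither gene overlapped between the tissues.

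Ifitm3, which blocks the fusion of entering viruses with endosomes, gave 2.65 ± 0.14 (adjusted p = 3.28e-20). Irf7, the factor that amplifies type I interferon production, gave 3.37 ± 0.27 (3.21e-14), with 13.5 to 39.9 CPM in livers and 0 to 6.19 in muscles. Stat2, a subunit of the complex that binds the ISRE, gave 2.95 ± 0.23 (1.3e-14). The partners Dtx3l, a ubiquitin ligase, and Parp9, its ADP-ribose binding partner, gave 2.22 ± 0.12 and 2.53 ± 0.15. Those genes lie head to head on opposite strands and overlap by 682 bases, as Psmb9 and Tap1 do by 212. Strand was lost in library preparation, and reads within either overlap cannot be told apart.

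In all, 13 of 40 genes were higher in every liver than in every muscle, against 15.8% of all genes. They were Irf7, Irf9, Stat2, Trim25, Dtx3l, Parp9, Bst2, Ifitm3, Tap1, Gbp7, Igtp, Irgm1 and Iigp1. The exception in direction was Ifi27l2a, a small mitochondrial protein gene of the Ifi27 family. It stood at 0.67 to 5.65 CPM in livers and 3.13 to 25.7 in muscles, a log2 ratio of -1.95 ± 0.25 (adjusted p = 9.17e-09). Ifit2, an RNA-binding effector, had near-equal medians of 4.33 CPM in liver and 4.39 in muscle (0.11 ± 0.38, adjusted p = 0.798). Oasl2 (0.71 ± 0.37, adjusted p = 0.0825) and Mx1 (1.19 ± 0.60, 0.0668) did not pass either. DESeq2 called both higher (0.85 and 1.35), as did limma-voom (1.37 and 2.17), so each of these tools called 38 of the 40 higher, against 43.1% and 41.7% of all genes. Mx1 is one of the 10 genes that entered the joint fit through their liver counts alone, and the 38 calls of either tool include all 10. With single libraries left out, edgeR called Oasl2 in 2 of 39 fits and Mx1 in 5 of 38. Both were called without muscle Ins2+/- B 4 (0.94 and 2.02). The Ifit, Oas, Mx, Gbp, Ifi27, Igtp and Iigp1 families have close copies in the genome among which kallisto divides reads, so single-gene values of these families are uncertain.

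**Figure D1:**
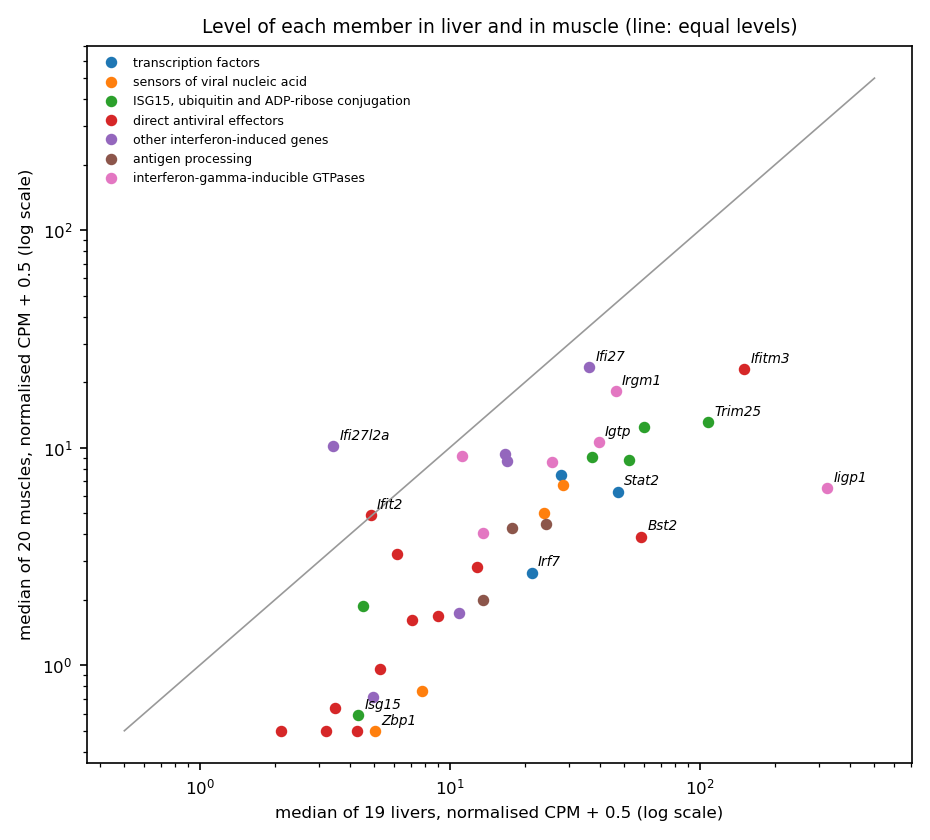
Median level of each of the 40 genes over 19 livers (x axis) and 20 muscles (y axis), in normalised CPM plus 0.5 on log scales under one joint scaling, coloured by role, with a line of equal levels. Nearly all points lie below the line, Iigp1 at 323 against 6.02 CPM lies furthest from it, and Ifi27l2a lies above it.

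Markers of other cells also differed between the tissues. The 12 Kupffer cell and macrophage markers summed to 425 to 1028 CPM in livers and 57.8 to 117 in muscles. All 12 were called higher in liver, against 38% of all genes. The list includes markers of Kupffer cells, the macrophages of the liver, so its choice favoured liver and these calls are not a test. In bulk tissue, more cells of a type and more RNA per cell cannot be told apart. Of the wider pathway lists, 44 of 53 further interferon-induced genes were called higher in liver and 3 lower, against 38% and 39.8% of all genes. These lists were not split by the filter on low counts in muscle, so some of their calls may rest on genes that entered through liver counts alone. The receptors, kinases and partners were divided, with 6 of 10 called higher and 4 lower, and so were the inhibitors of interferon signalling, with 3 of 12 each way.

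Levels between genes were compared per kb of exon, counting each base that lies in any annotated exon of the gene. This length can exceed that of the transcripts present, which lowers the value, so the order is approximate. In liver Ifitm3 led with a median of 224 CPM per kb, followed by Bst2 (65.3), Iigp1 (56.7), Ifi27 (24.8), Igtp (19.7) and Trim25 (19). Ifitm3 also led in muscle at 32.5 CPM per kb, followed by Ifi27l2a (22.1) and Ifi27 (14.7). The lowest in liver was Mx1, a gene of the dynamin-like GTPase family, at 0.431 CPM per kb. From Bst2 down to Trim25 the ranges over livers of neighbours in this order overlapped, except between Iigp1 (38.9 to 77.1) and Ifi27 (15 to 36.9). In muscle the ranges of Ifitm3, Ifi27l2a and Ifi27 all overlapped.

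Whether the Ins2 dose moved these genes was asked first in livers on diet A. None of the 40 was called between Ins2+/- and Ins2+/+, where 0.00849% of all 11777 genes were called, and neither DESeq2 nor limma-voom called any of the 40. The estimates lay mostly on one side. They were above 0 for 37 of 40 genes, against 48.8% of all genes, and the median log2 ratio was 0.359, against -0.008. Genes read in the same livers are not separate observations of genotype, and the list was chosen with earlier results of these data known. Counts of the 40, here and below, therefore describe the estimates and are not a test. In liver Ins2+/- A 4, 39 of the 40 lay above the liver median, and in A 2, 33 did. At an unadjusted p below 0.05 were 13 of the 40, each higher in Ins2+/-, against 10.1% of all genes in either direction. No gene separated the groups completely, where 0.662% of all genes did so upward and 0.926% downward.

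Irf7, on chromosome 7, had the lowest p of the transcription factors. Its levels in the 5 Ins2+/+ livers on diet A were 17.7, 17.2, 19.4, 19.2 and 15.3 CPM, a mean of 17.7 ± 1.67 (SD, n = 5). In the 5 Ins2+/- livers on diet A they were 24.1, 40.2, 13.7, 29.8 and 39.2 CPM, a mean of 29.4 ± 11. Of the Ins2+/- livers 4 of 5 lay above every Ins2+/+ liver, and replicate 3 lay below them all. On diet B the Ins2+/+ livers stood at 17.9, 19.4, 24.0 and 22.9 CPM and the Ins2+/- livers at 20.1, 22.2, 22.1, 21.2 and 34.04, and the groups overlapped. The log2 ratio between genotypes was 0.71 ± 0.21 on diet A (adjusted p = 0.265) and 0.16 ± 0.21 on diet B.

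Trim25 (chr11:88999376-89020293) had the lowest p of the conjugation enzymes. Its levels on diet A were 115, 118, 104.7, 109 and 104.4 CPM in Ins2+/+ livers and 128, 130.2, 126, 132 and 116 in Ins2+/- livers. On diet B they were 86.7, 101, 100.3 and 88.5 CPM in Ins2+/+ livers and 109.9, 107, 111, 105 and 84.2 in Ins2+/- livers. On either diet 4 of 5 Ins2+/- livers lay above every Ins2+/+ liver. The genotype difference was 0.20 ± 0.08 on diet A (adjusted p = 0.429), 0.14 ± 0.09 on diet B, and 0.17 ± 0.06 averaged over diets (adjusted p = 0.398).

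Among the effectors Ifitm3 had the lowest p. On diet A it stood at 141, 132, 172, 152 and 119 CPM in Ins2+/+ livers and at 191, 238, 155, 173 and 162 CPM in Ins2+/- livers. All 5 Ins2+/- livers exceeded the Ins2+/+ mean of 143 ± 20.4, and 3 exceeded its highest library. On diet B the levels were 159.5, 139, 159 and 121 CPM in Ins2+/+ and 129, 128, 123, 136 and 164 in Ins2+/- livers. The log2 ratios were 0.36 ± 0.12 on diet A (adjusted p = 0.325) and -0.09 ± 0.13 on diet B. Bst2 (chr8:71534255-71537456) on diet A held 52.7 to 63.8 CPM in Ins2+/+ and 59 to 76.2 in Ins2+/- livers, 3 of them above every Ins2+/+ liver (0.24 ± 0.09, adjusted p = 0.359). Ifit3 gave 0.67 ± 0.25 (adjusted p = 0.369).

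Ifi27 (chr12:103434211-103440239), which encodes a membrane protein, had the lowest p of the 40. Its levels on diet A were 37.3, 28.4, 32.2, 30.5 and 31.5 CPM in Ins2+/+ livers and 43.1, 49, 52.1, 54.1 and 28.7 in Ins2+/- livers. Here too 4 of 5 Ins2+/- livers lay above every Ins2+/+ liver, and the fifth lay among them. The log2 ratio was 0.54 ± 0.16 (adjusted p = 0.264) on diet A and -0.04 ± 0.16 on diet B, where the groups ranged from 31.6 to 40.5 and from 22.1 to 40.5 CPM. Rtp4, a receptor transporter with antiviral activity, gave 0.50 ± 0.18 on diet A (adjusted p = 0.359), and Xaf1, which promotes apoptosis, 0.42 ± 0.20 (0.487).

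Psmb8 (chr17:34197721-34201454), a catalytic subunit of the immunoproteasome that cuts peptides for MHC class I, stood at 21.1, 17.2, 17, 15.4 and 14.4 CPM in Ins2+/+ livers on diet A. In Ins2+/- livers it stood at 25.7, 24.1, 13, 30.5 and 23.4 CPM, so 4 lay above every Ins2+/+ liver and replicate 3 lay below. The log2 ratio was 0.47 ± 0.22 (adjusted p = 0.471). Its neighbours Psmb9, another such subunit, and Tap1, the peptide transporter, gave 0.34 ± 0.17 and 0.19 ± 0.16.

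Irgm1 (chr11:48861968-48871683), a regulator of the immunity-related GTPases, stood at 44.1, 54.8, 44.4, 43.1 and 46.3 CPM in diet A livers of Ins2+/+ mice and at 52.8, 67.1, 58.3, 64.6 and 52.8 in those of Ins2+/- mice. The groups touched only through Ins2+/+ replicate 2, and the log2 ratio was 0.35 ± 0.12 (adjusted p = 0.336). Igtp gave 0.38 ± 0.14 (adjusted p = 0.363). Among the GTPases all 6 estimates were above 0, from 0.09 to 0.42.

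The sensors and conjugation enzymes were less uniform. Zbp1 (chr2:173206612-173218923), a sensor of Z-form nucleic acid, had the lowest p of the sensors. On diet A it stood at 4.64, 4.9, 3.47, 3.77 and 1.75 CPM in Ins2+/+ livers and at 5.34, 3.27, 1.37, 8.6 and 6.79 CPM in Ins2+/- livers (0.44 ± 0.36, adjusted p = 0.712). The groups overlapped, with the lowest and the highest library both in Ins2+/-. The RNA helicase sensors Dhx58 (0.26 ± 0.23), Ddx58 (0.13 ± 0.13) and Ifih1 (-0.15 ± 0.12) fell on both sides of 0. Isg15, the ubiquitin-like modifier, spanned 2.18 to 4.51 CPM in Ins2+/+ livers against 3.16 to 7.34 CPM in Ins2+/- livers (0.61 ± 0.27, adjusted p = 0.452). The 3 genes with an estimate below 0 were Ifih1, Dtx3l (-0.16 ± 0.10) and Oas2 (-0.09 ± 0.33), which makes the activator of RNase L.

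By role the median estimate on diet A was 0.308 for the transcription factors, 0.192 for the sensors, 0.22 for the conjugation systems, 0.459 for the effectors, 0.488 for the other interferon-induced genes, 0.339 for antigen processing and 0.351 for the GTPases. Among effectors of low level the errors were wide, as for Mx1 (0.83 ± 0.50), Oas1a (0.75 ± 0.47), Ifit2 (0.66 ± 0.34), Mx2 (0.52 ± 0.39) and Oasl1 (0.45 ± 0.46). Usp18 gave 0.64 ± 0.34 and Iigp1 0.23 ± 0.15. None of these passed the test, and the Mx2 gene is annotated as a polymorphic pseudogene.

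**Figure D2:**
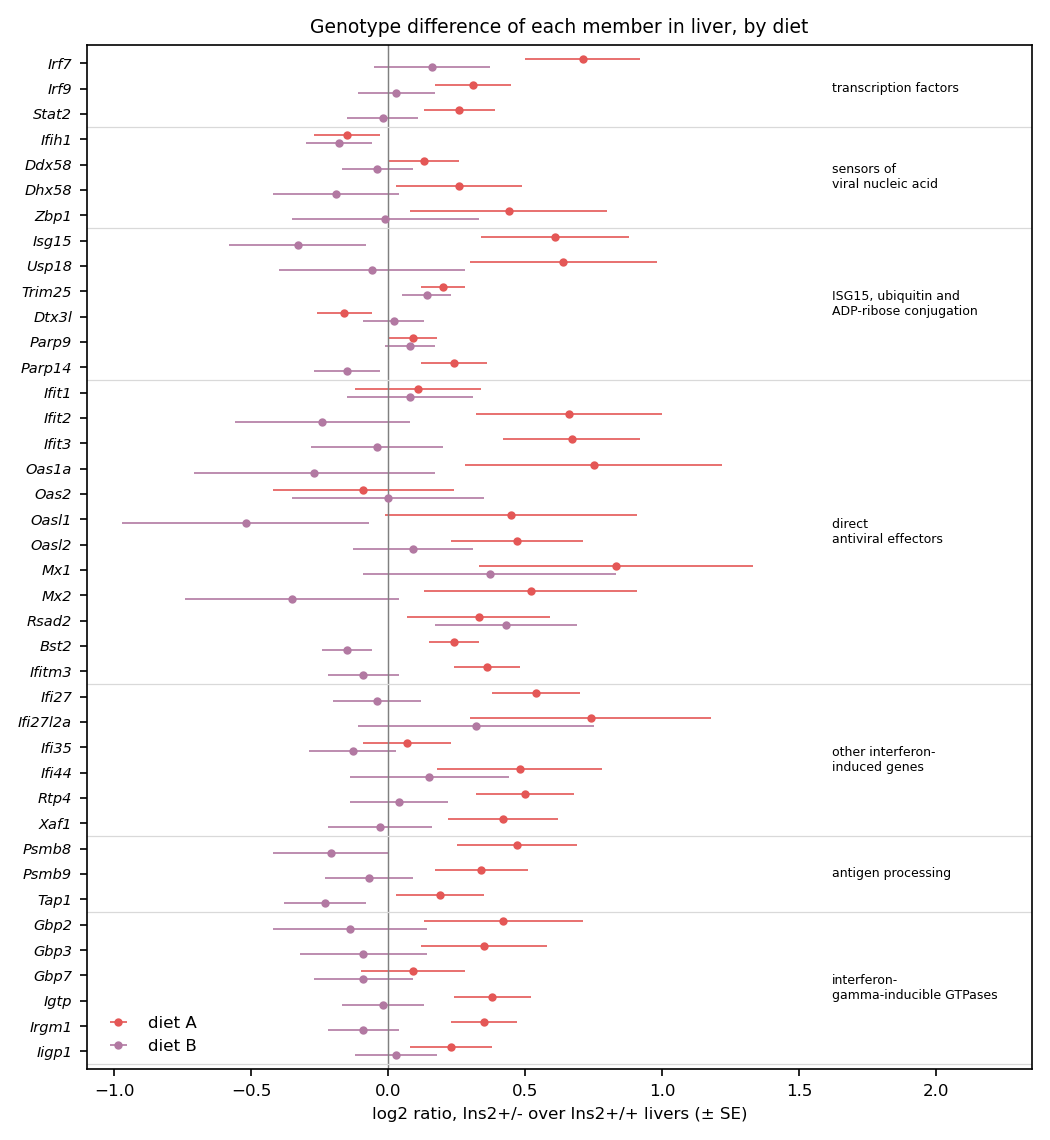
Log2 ratio of Ins2+/- over Ins2+/+ livers (x axis) for each of the 40 genes, grouped by role, on diet A (red) and diet B (purple); bars are standard errors. On diet A 37 of 40 points lie right of 0, with a median of 0.359, and on diet B the points straddle 0, with a median of -0.043.

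On diet B the estimates of the genotype difference lay on both sides of 0. They were above 0 for 14 of 40 genes, against 50.3% of all genes, with a median of -0.043. None was called, where 0% of all genes were called, and none of the 40 reached an unadjusted p below 0.05, where 4.25% of all genes did. The lowest p belonged to Rsad2, or viperin, which makes an antiviral nucleotide (0.43 ± 0.26), and next came Bst2 at -0.15 ± 0.09, both with an adjusted p of 1. Averaged over diets, 33 of 40 estimates were above 0 (49.7% of all genes), with a median of 0.135 and none called (0.00849% of all genes). Of the 40, 5 had an unadjusted p below 0.05, against 9.65% of all genes: Irf7, Trim25, Ifi27, Rtp4 and Rsad2.

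The change of the genotype difference between diets was tested as an interaction. No gene of the 40 was called, nor was any of the 11777 genes (0%). Estimates were below 0 for 37 of 40, with a median of -0.424, where 51.6% of all genes lay above 0. An unadjusted p below 0.05 was reached by 7 of the 40, all negative, against 4.8% of all genes in either direction. They were Bst2 (-0.39 ± 0.13, adjusted p = 0.981), Ifi27 (-0.58 ± 0.22), Isg15 (-0.93 ± 0.37), Ifitm3 (-0.46 ± 0.18), Irgm1 (-0.44 ± 0.18), Psmb8 (-0.68 ± 0.30) and Parp14 (-0.39 ± 0.18), an ADP-ribosyltransferase. Without livers Ins2+/- A 2 and A 4, described below, 34 of 40 estimates were below 0 and the median was -0.176.

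**Figure D3:**
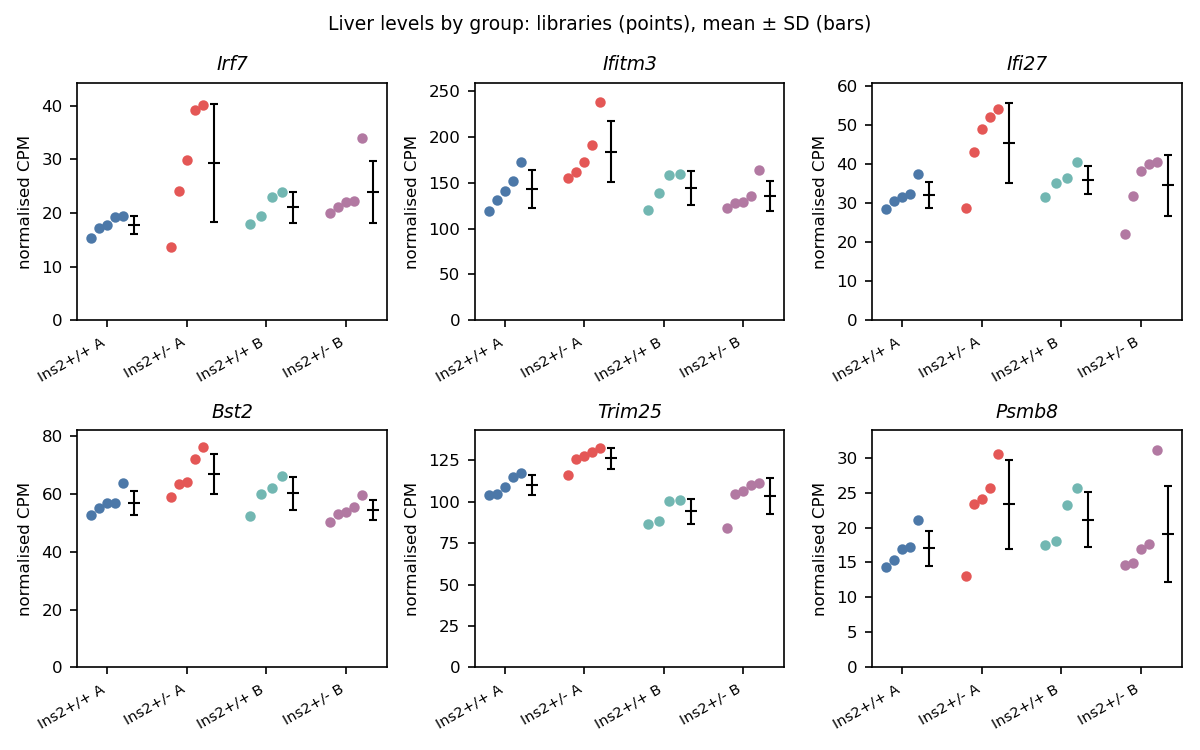
Normalised CPM (y axis) of Irf7, Ifitm3, Ifi27, Bst2, Trim25 and Psmb8 in each liver (points, sorted by value within a group) by genotype and diet, with the mean and SD of each group beside them. The highest value lies in an Ins2+/- liver on diet A for each gene but Psmb8, whose highest is an Ins2+/- liver on diet B at 31.1 CPM, and for Trim25 both diet B groups lie below the diet A group of the same genotype.

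Diet was compared within each genotype. These comparisons share the Ins2+/- diet A livers, and the Ins2+/+ diet A livers, with the genotype comparison above, so their values are not independent of it. In Ins2+/- livers, estimates of diet B over diet A were below 0 for 38 of 40 genes, with a median of -0.224, where 49.8% of all genes were above 0. None was called, against 0.0425% of all genes in either direction, 0.0255% higher and 0.017% lower. An unadjusted p below 0.05 was reached by 10, all lower on diet B, against 12.3% of all genes in either direction. In Ins2+/+ livers the estimates were above 0 for 30 of 40 genes (48.6% of all genes), with a median of 0.153 and none called (0.0425% of all genes). There 3 had an unadjusted p below 0.05, against 6.27% of all genes: Ifit3 (0.58 ± 0.26) and Tap1 (0.35 ± 0.16) above 0 and Trim25 (-0.23 ± 0.09) below.

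The lowest p values in Ins2+/- livers belonged to Ifitm3 (-0.44 ± 0.12, adjusted p = 0.148), Bst2 (-0.31 ± 0.09, 0.151) and Trim25 (-0.29 ± 0.08, 0.156). Ifi27 (-0.42 ± 0.15), Ifi35 (-0.38 ± 0.15), Dhx58 (-0.55 ± 0.22), Igtp (-0.34 ± 0.14), Parp14 (-0.29 ± 0.12), Usp18 (-0.73 ± 0.31) and Irgm1 (-0.28 ± 0.12) followed, with adjusted p from 0.275 to 0.35. Usp18 removes ISG15 from its targets and damps the type I receptor. DESeq2 called 3 of the 40 lower in this comparison, Ifitm3, Bst2 and Trim25 (adjusted p = 0.0405 each), against 0.477% of all genes. Limma-voom with sample weights called 5 lower, adding Ifi35 and Irgm1, against 2.43% of all genes. Without livers Ins2+/- A 2 and A 4, 24 of 40 estimates were below 0, with a median of -0.049.

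Trim25 lay lower on diet B in both genotypes. Every diet B liver lay below every diet A liver in Ins2+/- (84.2 to 111 against 116 to 132 CPM) and in Ins2+/+ (86.7 to 101 against 104.4 to 118 CPM). Complete separation of this kind held for 0.968% of all genes in Ins2+/- and 0.951% in Ins2+/+. Averaged over genotypes, 16 of 40 estimates were above 0 (49.3% of all genes), the median was -0.047, and 3 had an unadjusted p below 0.05 (12.8% of all genes), Trim25, Ifi35 and Ifitm3, all lower on diet B. For Trim25 the log2 ratio was -0.26 ± 0.06, with an adjusted p of 0.0619 by edgeR, 0.00654 by DESeq2 and 0.0233 by limma-voom with sample weights. So edgeR did not call it, where it called 0.238% of all genes in either direction and 0.0509% lower, and the other tools did, where DESeq2 called 0.811% and limma-voom 0.968% of all genes lower. Leaving out Ins2+/- B 1 or Ins2+/- B 5, where Trim25 was lowest of all livers, gave edgeR estimates of -0.27 and -0.23 that were called. Irf9 was the other gene with complete separation by diet, higher on diet B in Ins2+/+ livers (28 to 33.7 against 23.9 to 27.4 CPM), where 1.16% of all genes did so.

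Libraries differed within groups. Livers Ins2+/- A 2 and A 4 were among the 3 highest of 19 for 25 of the 40 genes each, while 21.5% and 12.9% of all genes were so placed in them. The median deviation of the 40 genes from the liver median was 0.39 and 0.42 on the log2 scale in these libraries. Ins2+/- B 5 followed at 0.22 and Ins2+/+ B 4 at 0.18, and the other livers lay between -0.19 and 0.14. Without Ins2+/- A 2 and A 4, an alternative added after the data were seen, 30 of 40 estimates of genotype on diet A were above 0 and their median was 0.126, where it had been 0.359. Irf7 then gave 0.44, Ifi27 0.41, Ifitm3 0.24 and Trim25 0.16, and Dhx58 turned to -0.14.

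**Figure D4:**
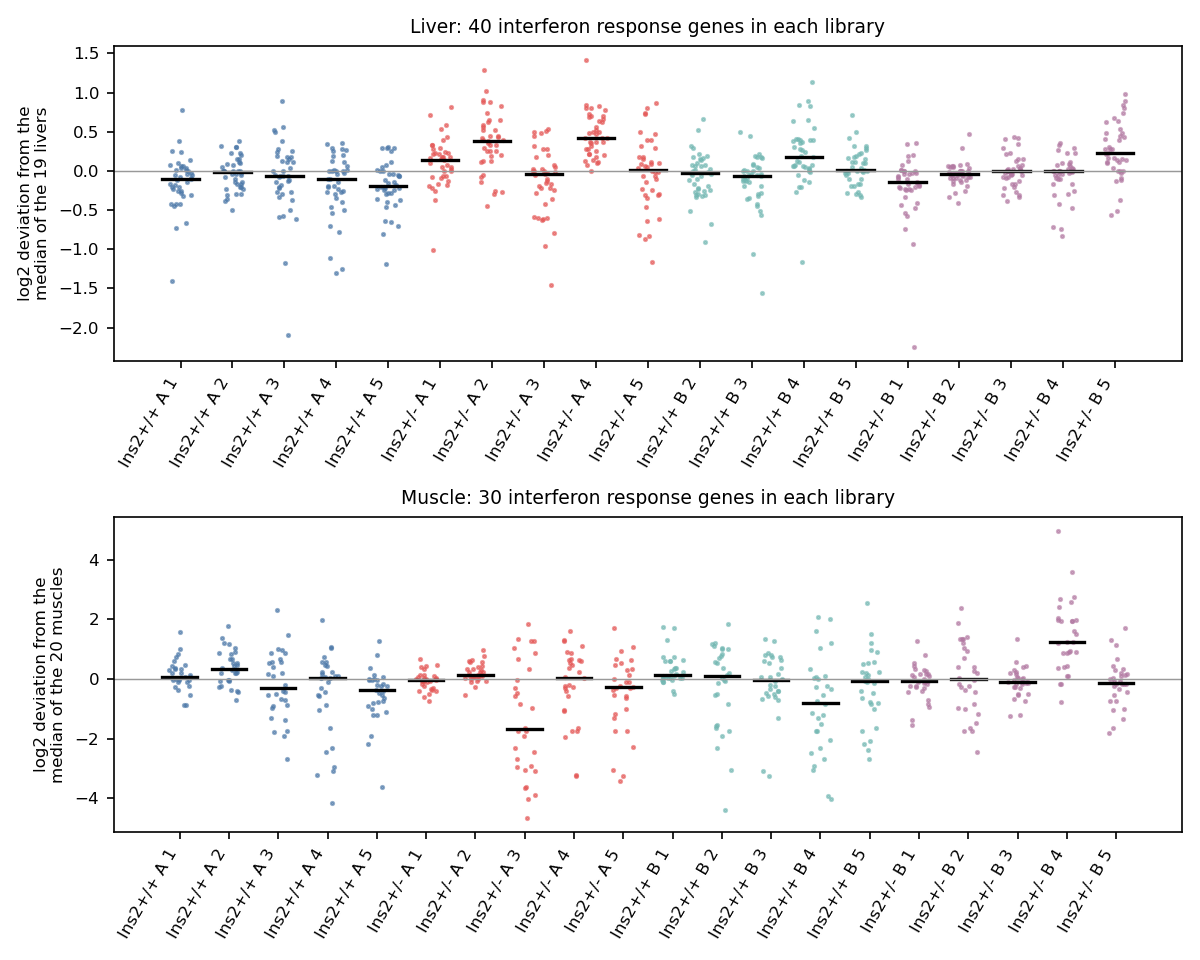
Log2 deviation of each gene (points) from its median over the tissue (y axis), for each liver (40 genes, upper panel) and muscle (30 genes, lower panel), with the library's median as a bar and colours for the 4 groups. Livers Ins2+/- A 2 and A 4 stand highest at 0.39 and 0.42, and muscle Ins2+/- B 4 stands at 1.25 where muscle Ins2+/- A 3 stands at -1.69.

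Macrophage markers were read in the same libraries. The 12 Kupffer cell and macrophage markers, none at 0 in any liver, summed on diet A to 515 to 631 CPM in Ins2+/+ livers and 638 to 1028 in Ins2+/- livers. The diet B sums were 425 to 644 and 558 to 925 CPM. The highest livers were Ins2+/- A 2 (1028 CPM), B 5 (925), A 5 (801) and A 4 (753). The order differed from that of the 40 genes, since A 4, highest for the genes, was the median of its group for the markers, A 5 was at 0.02 for the genes, and Ins2+/+ B 4, at 0.18, held 625 CPM of the markers. On diet A all 12 markers had estimates above 0 for genotype (48.8% of all genes), with a median of 0.401. An unadjusted p below 0.05 was reached by 6, against 10.1% of all genes, and none was called (0.00849% of all genes). C1qc, a complement subunit made by macrophages, gave 0.64 ± 0.17 (adjusted p = 0.221). In Ins2+/- livers all 12 were below 0 on diet B over diet A, with a median of -0.273. The part of these markers in the interferon response gene differences was not tested. Monocyte and neutrophil markers summed to 78 to 135.5 CPM in Ins2+/+ and 89.9 to 227 in Ins2+/- livers on diet A, and the 4 tested of 7 had estimates above 0. Endothelial markers spanned 255 to 307 and 245 to 309 CPM, and T and NK cell markers, none of which entered the test, 2.18 to 11.7 CPM over all livers. Hepatocyte markers summed to 93910 to 118300 CPM (median 104600) in Ins2+/+ and 90770 to 140400 (median 134500) in Ins2+/- livers on diet A, and B cell markers to 1.04 to 4.22 and 3.16 to 7.96 CPM. The part of these lists in the result was not tested either. Among diet A livers islet markers reached 12.4 CPM with Ins2+/+ and 128 with Ins2+/-, and without the libraries holding them 35 of 40 estimates were above 0, with a median of 0.255.

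**Figure D5:**
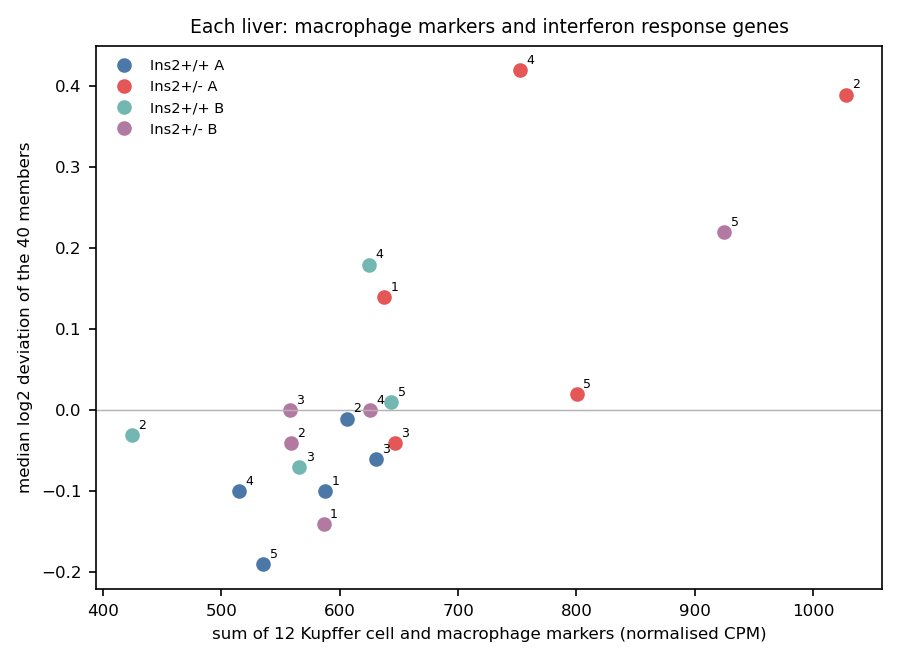
Each liver by its summed level of 12 Kupffer cell and macrophage markers in normalised CPM (x axis) and the median log2 deviation of the 40 interferon response genes (y axis), coloured by group and numbered by replicate. Ins2+/- A 2, A 4 and B 5 lie high on both axes, and Ins2+/- A 5, with 801 CPM of the markers, lies near 0 for the genes.

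Position on the genome bears on a pair of the genes. Irf7 (chr7:141262706-141266481) and Ifitm3 (chr7:141009586-141010770) lie 1.41 and 1.67 Mb from Ins2 on GRCm38. On a mixed background the chromosome around the altered Ins2 allele may come from another strain than its counterpart, so the Ins2 dose and linked variants cannot be told apart for these genes. Of 60 tested genes within 2 Mb of Ins2, 40 had estimates above 0 for genotype in livers on diet A (48.8% of all genes). An unadjusted p below 0.05 was reached by 10, against 10.1% of all genes, and none was called (0.00849% of all genes). By p Irf7 ranked 2nd and Ifitm3 5th of these 60. The 38 genes elsewhere had a median of 0.351 on diet A, against 0.359 with both included.

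Other genes of the pathway were compared in the same livers. Of 53 further interferon-induced genes, 38 had estimates above 0 for genotype on diet A (48.8% of all genes), with a median of 0.133. An unadjusted p below 0.05 was reached by 2, against 10.1% of all genes, and none was called (0.00849% of all genes). The lowest p belonged to Slfn2 (0.83 ± 0.27) and Lgals3bp (0.40 ± 0.15). Receptors, kinases and partners had 8 of 10 above 0, and the lowest p belonged to one below it, Ifnar1, a chain of the type I receptor, at -0.21 ± 0.10. Inhibitors had 9 of 12 above 0, with Socs3 at 0.88 ± 0.35 and Ptpn1, a phosphatase that acts on JAK2 and TYK2, at 0.30 ± 0.13. Adaptors, kinases and IRFs upstream of interferon had 10 of 15 above 0, and Mavs, the mitochondrial adaptor of the RNA sensors, was at -0.15 ± 0.11.

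In muscle none of the tested 30 genes was called in any of 7 comparisons of genotype and diet, where at most 0.00836% of all 11959 genes were called, nor by DESeq2 or limma-voom. Spread was wider there, with a biological coefficient of variation of 51.8% against 19.1% in liver. For genotype on diet A, 12 of 30 estimates were above 0 (48.7% of all genes), with a median of -0.124 (0.037 without Ins2+/- A 3), and on diet B 23 of 30 were (51.7% of all genes), with a median of 0.414. No gene of the 30 had an unadjusted p below 0.05 on diet A (1.67% of all genes) or on diet B (4.54%). Irf7 in Ins2+/+ muscles on diet A stood at 4.48, 5.19, 2.79, 0 and 5.57 CPM and in Ins2+/- muscles at 1.98, 2.28, 0, 1.40 and 3.01. The groups overlapped, since an Ins2+/+ muscle at 2.79 CPM lay below the Ins2+/- muscle at 3.01. The values of 0 allow up to 0.808 and 2.83 CPM at the depth of those libraries. Ifitm3 in diet A muscles spanned 14.9 to 36.8 CPM in Ins2+/+ and 17.8 to 35.2 CPM in Ins2+/-. Averaged over diets, 22 of 30 estimates were above 0 (50.5% of all genes), and Parp14 alone had an unadjusted p below 0.05 (0.89 ± 0.38, adjusted p = 0.999), against 3.24% of all genes.

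Some muscle libraries stood apart. Muscle Ins2+/- A 3, the shallowest at 1060469 counts, had a median deviation of -1.69 and was among the 3 lowest of 20 for 18 of the 30 genes. Mitochondrial genes took 49.7% of the counts of Ins2+/- B 2, against 13.7% to 26.8% in the other muscles, and the median deviation there was 0.01. Muscle Ins2+/- B 4, with 1154071 counts, was among the 3 highest of 20 for 23 of the 30 genes, against 29.5% of all genes in it, and its median deviation was 1.25. Ifit1, an effector that binds viral RNA caps, reached 52.1 CPM there and at most 5.10 in the other 19 muscles. Markers of pancreatic acinar cells summed to 19260 CPM in this library and islet markers to 6807, the highest of all muscles, and their part in the result was not tested. In Ins2+/- muscles the Ifit1 estimate for diet B over diet A was 4.07 ± 1.5 on the log2 scale (adjusted p = 0.951), and 1.39 without this library. Ifit1 alone of the 30 had an unadjusted p below 0.05 in that comparison, where 4.82% of all genes did. Without it the median for genotype on diet B went from 0.414 to 0.023, and that for diet in Ins2+/- muscles from 0.429 to 0.046.

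Iigp1 was the muscle gene with complete separation. In Ins2+/- muscles it stood at 8.07, 9.04, 12.8, 8.94 and 9.83 CPM on diet A and at 5.50, 6.11, 3.40, 3.31 and 4.91 on diet B. Every diet B muscle was below every diet A muscle, as held for 0.251% of all genes, and the log2 ratio was -1.04 ± 0.67 (adjusted p = 0.951). In Ins2+/+ muscles the ranges were 1.40 to 21.6 and 0.651 to 13.9 CPM and overlapped.

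Whether genotype acted differently in the tissues was tested directly. This test, like that of liver against muscle, took the 39 libraries as separate samples. The labels do not say whether a liver and a muscle of one number come from one mouse. For genotype on diet A in liver minus that in muscle, none of the 40 genes was called (0% of all genes). An unadjusted p below 0.05 was reached by Oasl1 (-3.45 ± 1.44) and Irf7 (1.64 ± 0.71), both with an adjusted p of 1, against 4.14% of all genes. Oasl1 did not enter the muscle test, and its muscle levels were near 0, with means of 0.0344 CPM in Ins2+/+ (4 of 5 libraries at 0) and 0.749 in Ins2+/- (2 of 5 at 0). Averaged over diets, 21 of 40 estimates were above 0 and none was called (0% of all genes).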

How the data were processed

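Liver and muscle RNA (400 ng) was sequenced with an unstranded kit over 2 lanes, per the labels' protocols. Per the submitters' processing notes, kallisto 0.42.3, GRCm38 and DESeq2 were used, the last with no role or version given. The deposited tables hold the authors' estimated counts per gene, with no further normalization found. These were rounded to whole numbers. Symbols and positions came from GENCODE M21, which named 98.9% of identifiers. The genes and lists were chosen with earlier results of these data known.

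The fit for a tissue used edgeR 4.0.16 (R 4.3.3) with TMM scaling, filterByExpr by group and the quasi-likelihood test. All 4 groups shared the spread (15 residual degrees of freedom in liver, 16 in muscle), and 8 groups did so in the joint fit (31). Benjamini-Hochberg adjustment ran over every gene in a fit, and called means an adjusted p below 0.05. Ratios are log2 ± SE. Levels are CPM after TMM scaling, and deviations use log2(CPM + 0.5). Floors of 3 counts cover counting error only.

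Named genes are those called (or the 8 of lowest p per direction where more than 12 were), otherwise up to 3 of lowest p per role. The alternatives were DESeq2 1.42.0, limma-voom (3.58.1), RLE and upper-quartile scaling, other filters, a replicate block, only the groups compared, an adjusted p of 0.1, livers Ins2+/- B 2 and B 3 summed, fits without islet-positive libraries and each library left out. Scripts were tested on simulated data. Lanes were not given per library, so no lane term was fitted.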

Additional observations from a re-analysis of the deposited data

Results flagged for a closer look

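In 12 genes, 96 groups of libraries were examined for a library far from the rest of its group, and 11 had one. Chance gives such a library in about 1 in 20 separate groups. The 12 genes were read in the same libraries, so the groups are not separate and the 11 were not tested against that rate. Liver Ins2+/- B 5 accounted for 4 of the 11. It was above its group for Irf7 (34.04 CPM, others 20.1 to 22.2), Psmb8 (31.1, others 14.6 to 17.6) and Irgm1 (65.3, others 43.6 to 46.5). It was below its group for Trim25 (84.2 CPM, others 105 to 111). Liver Ins2+/+ A 2 stood above its group for Irgm1 (54.8 CPM, others 43.1 to 46.3).

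In muscle, Ins2+/- B 4 stood above its group for Ifit1 (52.1 CPM, others 0.0774 to 3.78). Dhx58 stood apart in muscles Ins2+/+ A 2 (1.82 CPM, others at most 0.517) and Ins2+/- A 2 (1.42, others at most 0.273). Isg15 did so in muscles Ins2+/+ B 3 (3.28 CPM, others at most 0.728) and Ins2+/- A 2 (0.925, others at 0). A count of 0 in muscle Ins2+/- A 3 allows up to 2.83 CPM, more than Dhx58 or Isg15 held in Ins2+/- A 2. Neither gene entered the muscle test, and the rate of 1 in 20 may not hold for values this near 0. Ifi27l2a was low in muscle Ins2+/+ B 4 (3.25 CPM, others 13 to 14.7).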

How the results depend on the processing

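Liver genotype counts of called genes were 0 under every alternative run. For diet in Ins2+/- livers, called genes numbered 3 with DESeq2 and 5 with limma-voom. For diet averaged over genotypes, 1 was called with DESeq2, with limma-voom and at an adjusted p below 0.1, and 0 to 1 with single libraries left out; it was Trim25. Without livers Ins2+/- A 2 and A 4, 24 estimates were below 0 for diet in Ins2+/- livers, the interaction median was -0.176, and Dhx58 for genotype on diet A was -0.14. For genotype on diet B in liver, Ifi27 turned to 0.06 with limma-voom and ranged from -0.11 to 0.07 with single libraries left out. There, without libraries holding islet transcripts, Ifitm3 turned to 0.02, Psmb8 to 0.09 and Irgm1 to 0.02. Under the same setting Ifitm3 in muscle turned to -0.01 on diet A and 0.29 on diet B. With single libraries left out, muscle genotype estimates ranged from -0.01 to 0.42 for Ifitm3 on diet A, from -0.33 to 0.28 for Ifitm3 on diet B and from -0.1 to 3.57 for Ifit1 on diet B. The cause was not tested. With single livers left out, the median of the 40 genes for genotype on diet A ranged from 0.26 to 0.435.

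Replicate numbers did not pair samples throughout: same-numbered libraries correlated above 0.1 in 6 of 27 liver pairs and 10 of 30 muscle pairs. Between a liver and a muscle of one group and number, 1 of 19 pairs did so. Number 1 did so in 3 of 3 liver pairs (0.158 to 0.274) and 6 of 6 muscle pairs (0.179 to 0.254), and what these libraries share is not given. With a replicate block, genotype on diet A in liver had 37 estimates above 0, and Oasl2 (1.29) and Mx1 (2.41) were called between tissues. Mx1 entered that fit through its liver counts alone.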

Other observations

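Genes of the pathway outside the 40 were also compared by diet in Ins2+/- livers, and none was called (0.0425% of all genes). Of 53 further interferon-induced genes, 39 had estimates of diet B over diet A below 0, with a median of -0.096. Of all genes 49.8% lay above 0. Those of lowest p were Ly6e (-0.53 ± 0.18), Parp10 (-0.37 ± 0.13) and Cxcl10, a chemokine (-1.04 ± 0.43). Irf3, which turns on interferon genes when sensors fire, gave -0.36 ± 0.11, Irf5 -0.70 ± 0.31 and Trex1, a DNA exonuclease that limits self-DNA sensing, -0.78 ± 0.32. Jak2, a kinase of the interferon-gamma receptor, gave 0.37 ± 0.14.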
